A study of Homo sapiens with 9 samples.

Results

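The 10 genes described here, *PIM1*, *PIM2*, *CISH*, *SOCS1*, *SOCS2*, *SOCS3*, *OSM*, *BCL6*, *ID1* and *SPRED2*, are known transcriptional targets of STAT5. They were chosen by name, with earlier results of these data known. A TIF-Seq2 read pair was counted for a gene when both of its ends lay on the gene's strand within 1000 bp of the gene body in Gencode v44 (hg38). Of the 10 genes, 9 had at least 1 read pair and 8 had enough to be tested, out of 20054 protein-coding and lncRNA genes with a read pair and 11729 genes tested. TIF-Seq2 circularises cDNA made from the cap to the poly(A) tail, so that each read pair links the start (TSS) and the poly(A) site (PAS) of 1 molecule. The cells were K562, an established human line from chronic myeloid leukaemia (CML) in blast crisis, which carries the *BCR-ABL1* fusion. They were exposed to 1 µM imatinib, an inhibitor of the ABL kinase, for 24 h, or to the vehicle DMSO, and each condition had 2 biological replicates. The comparison asks how RNA molecules of known STAT5 targets responded to the drug in a single cell line, with no other dose or time among the samples.

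STAT5A and STAT5B are latent transcription factors that become active when a tyrosine kinase phosphorylates them. Cytokine receptors do this through JAK2, and BCR-ABL1 does so without a cytokine. Phosphorylated STAT5 dimers enter the nucleus and bind sites of the form TTCNNNGAA, known as GAS elements. The targets include kinases that promote survival, and inhibitors that act back on the receptor and on JAK kinases in a negative feedback loop.

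The libraries held 3695520 and 5135829 read pairs for DMSO replicates 1 and 2, and 4263670 and 2263121 for imatinib replicates 1 and 2. Imatinib replicate 2 was the shallowest. Levels are in CPM, the read pairs of a gene in each 1000000 pairs of its library after TMM normalisation. A count of 0 allows up to 3 read pairs, which is 0.584 to 1.33 in each 1000000 deposited pairs, before the TMM adjustment, and covers counting error only. Over all tested genes, 1042 were higher and 703 lower after imatinib at an adjusted p under 0.05 (edgeR quasi-likelihood test, Benjamini-Hochberg), with a median log2 fold change of 0.03. The number called lower was 454 without DMSO replicate 1, 316 without DMSO replicate 2, 1073 without imatinib replicate 1 and 1718 without imatinib replicate 2. Of 12 erythroid markers of K562, 10 were higher after imatinib, and their summed level went from 7448 and 6192 CPM in DMSO to 20573 and 20803 in imatinib, a shift whose part in the results below was not tested. Among markers of other cells, *CD3E*, *MS4A1*, *CD14*, *ELANE* and *CSF3R* were at 0 read pairs in all libraries. The 4 T cell markers summed to 74.1 and 58.8 CPM in DMSO and 5.11 and 3.57 in imatinib, nearly all from *CD3D* (257 and 304 read pairs in DMSO, 23 and 8 in imatinib), and the part of this in the results was not tested. The monocyte gene *LYZ* was present in every library and did not pass the test. In bulk RNA, fewer cells with a transcript and less of it in each cell cannot be told apart.

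TTCNNNGAA, which reads the same on both strands, was searched in 300-base promoters of RefSeq (GRCh38.p14), from 250 bases before to 50 after each start. It was found in 7.66% of 35116 promoters. Of the members, 8 had a promoter in that table and 2 of these, *CISH* and *BCL6*, held the motif. Around the starts that TIF-Seq2 measured, the same 300-base window held the motif at 6.64% of 15953 TSS clusters. It held the motif at 4 of the 12 member starts searched, the leading starts of 6 members and 6 starts of *SOCS2*. Those of *SOCS2* lie close together, so the 12 are not independent. The stretch upstream of *CISH* (chr3:50611875-50612024, minus strand, hg38) is shown because it holds 4 matches, which begin 241, 230, 129 and 112 bases before the most used start of the gene. The stretch upstream of the *SOCS2* start at chr12:93571040 (chr12:93570815-93570919, plus strand) is shown because this start led the gene after imatinib. It lies in an intron of the longer *SOCS2* transcripts, and its 3 matches begin 216, 144 and 133 bases before that start. The stretch before the second *SOCS2* start, at chr12:93569985 (chr12:93569882-93569911, plus strand), is shown beside it because few read pairs of that start were left after imatinib, and its match begins 93 bases before the start. *PIM2* (chrX:48919255-48919284, minus strand) and *BCL6* (chr3:187745477-187745506, minus strand) are shown for 1 match each, which begin 251 and 28 bases before their most used starts. The *PIM2* match lies just outside the 300-base window, and *BCL6* has 4 matches in that window. Capitals mark TTCNNNGAA.
CISH: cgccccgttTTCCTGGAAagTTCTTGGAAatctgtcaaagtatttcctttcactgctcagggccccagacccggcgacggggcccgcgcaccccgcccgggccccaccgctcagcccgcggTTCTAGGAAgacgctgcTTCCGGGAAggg
SOCS2, start 93571040: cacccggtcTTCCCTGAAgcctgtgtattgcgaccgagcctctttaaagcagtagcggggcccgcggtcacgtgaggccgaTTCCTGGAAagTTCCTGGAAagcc
SOCS2, start 93569985: agaatagtatTTCAAAGAAaaatgcttatc
PIM2: gcaaagggaTTCCCAGAAccggtttcctct
BCL6: gaagctcaaaTTCCGAGAAttgagctctgt
In the 1000 bases either side of the most used starts of *ID1*, *PIM1* and *SPRED2* and of the annotated start of *SOCS1*, these letters were not found. The annotated starts of *SOCS3* and *OSM* each had 3 matches in that range, of which 1 and 2 lay in the 300-base window. The share of all starts with a match in the wider range was not computed. A match describes the sequence and not binding, which was not measured.

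After imatinib, 6 of the 8 tested genes were lower (*PIM1*, *PIM2*, *CISH*, *SOCS2*, *SOCS3* and *ID1*) and none was higher, where 5.99% of all tested genes were called lower, 8.88% higher and 14.9% in either direction. All 6 also had a log2 fold change under -1.5. Of all tested genes, 3.2% were called lower with a log2 fold change under -1.5, which is 375 of the 703 called lower. The median log2 fold change of the 8 genes was -2.30. Both imatinib libraries lay below both DMSO libraries for 7 of the 8, which held for 28.9% of all tested genes in that direction, and *BCL6* was the exception. Added over the 10 genes, the level was 578 and 503 CPM in DMSO and 100.3 and 98.5 in imatinib.

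**Figure D1:**
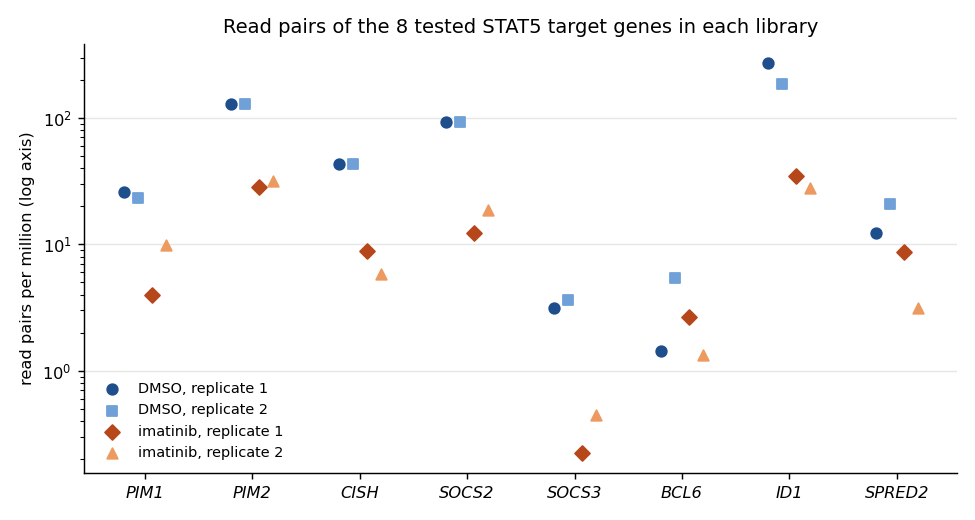
Level in CPM (read pairs in each 1000000, log axis) of the 8 tested STAT5 target genes in the 2 DMSO and the 2 imatinib libraries, 1 point per library. The imatinib points lie below both DMSO points for 7 genes, and for *BCL6* they overlap; *SOCS1* and *OSM* had 0 and 1 read pairs and are not drawn.

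Among the inhibitors of cytokine signalling, *CISH* and *SOCS2* fell together and *SOCS3* was low throughout. *CISH* encodes CIS, an SH2 protein that competes with STAT5 for docking sites on activated receptors, and lies at chr3:50606489-50611774. DMSO replicates 1 and 2 gave 149 and 225 read pairs of it, against 40 and 13 in imatinib replicates 1 and 2. The groups did not overlap, with 43.0 ± 0.271 CPM in DMSO and 7.34 ± 2.18 in imatinib (mean ± SD over 2 libraries each, as below). This was a log2 fold change of -2.50 ± 0.34 (SE), a 5.67-fold lower level, with an adjusted p of 0.00364 by the edgeR test. *SOCS2* (chr12:93569814-93583487), an adaptor of a ubiquitin ligase that limits growth hormone and STAT5 signalling, had 324 and 486 read pairs in DMSO and 55 and 42 in imatinib. Its level went from 93.2 ± 0.147 to 15.5 ± 4.60 CPM, without overlap. That is a log2 fold change of -2.62 ± 0.32 (SE), 6.14-fold lower, with an adjusted p of 0.00285 by edgeR.

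*SOCS3* (chr17:78356778-78360077), which binds JAK kinases and blocks their activity, had 11 and 19 read pairs in DMSO and 1 and 1 in imatinib. Against the deposited totals the DMSO libraries held 11.1 times as many (exact 95% interval of the ratio 2.81 to 95.7, counting error only). This and the later ratio intervals add the libraries of a condition and leave out the spread between replicates. The fitted log2 fold change was -3.39 ± 0.71 (SE) and depends on the prior count, with an adjusted p of 0.0161 by edgeR. *SOCS3* had enough read pairs to be tested only through the DMSO libraries, so it could only be called lower. The call was lost with DESeq2 (adjusted p = 0.120), without DMSO replicate 1 (edgeR adjusted p = 0.0509) and without imatinib replicate 1 (0.107), and the gene was no longer tested without DMSO replicate 2 or without pairs that span under 300 bp or over 2 Mb. All but 1 of its 32 read pairs ended in a group around chr17:78356783, and 71.9% of them had 7 or more A in the 10 bases after the end, a mark of possible priming inside the RNA. Without such pairs, 2 and 7 read pairs in DMSO and 0 and 0 in imatinib were left, and the gene was not tested. *SOCS1* (chr16:11254417-11256204), a relative of *SOCS3* that also inhibits JAK kinases, had 0 read pairs in all 4 libraries and was not detectable at this depth.

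The PIM kinases are constitutively active serine/threonine kinases that support survival and protein synthesis, and both fell. *PIM1* (chr6:37170152-37175428) had 91 and 120 read pairs in DMSO and 18 and 22 in imatinib. The level was 24.6 ± 2.2 CPM in DMSO and 6.90 ± 4.11 in imatinib, where imatinib replicate 2 was the higher of its pair at 9.81 against 4.00. The log2 fold change was -1.92 ± 0.44 (SE) with an adjusted p of 0.0211 by edgeR, and it was -1.31 without imatinib replicate 1 and -2.64 without imatinib replicate 2, both still called. *PIM2* (chrX:48913182-48919024) had 452 and 671 read pairs in DMSO and 129 and 71 in imatinib. Its replicates lay close together, at 129.4 ± 0.745 CPM in DMSO and 30.1 ± 2.13 in imatinib. Its log2 fold change was -2.10 ± 0.28 (SE), a 4.30-fold lower level, with an adjusted p of 0.00326 by edgeR.

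The transcriptional regulators differed from each other. *ID1* (chr20:31605283-31606515) encodes a helix-loop-helix protein without a DNA-binding region, which holds E proteins away from DNA. It had 937 and 962 read pairs in DMSO and 157 and 62 in imatinib, the most of the 10 genes in each library but imatinib replicate 2, where *PIM2* had 71. The level went from 227 ± 59.8 to 31.2 ± 5.10 CPM, and DMSO replicate 1 was the highest at 269 against 185 in replicate 2. Its log2 fold change was -2.85 ± 0.32 (SE), a 7.21-fold lower level, with an adjusted p of 0.00215 by edgeR. *BCL6* (chr3:187721377-187745725), a zinc finger repressor of germinal centre B cells that binds some of the same sites as STAT5, had 5 and 28 read pairs in DMSO and 12 and 3 in imatinib. The groups overlapped, at 3.41 ± 2.79 and 2.00 ± 0.938 CPM. The log2 fold change of -0.73 ± 0.67 (SE) did not pass the test (edgeR adjusted p = 0.496), and it was 0.52 without DMSO replicate 2.

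*SPRED2* (chr2:65310851-65432637), which restrains RAS-ERK signalling, had 43 and 108 read pairs in DMSO and 39 and 7 in imatinib. All imatinib values (8.66 and 3.12 CPM) were below those of DMSO (12.4 and 20.7). The log2 fold change of -1.40 ± 0.48 (SE) missed the threshold with an edgeR adjusted p of 0.0839. It passed when DMSO replicate 1 (adjusted p = 0.0212), imatinib replicate 1 (0.000352) or imatinib replicate 2 (0.0475) was left out, and not when DMSO replicate 2 was left out (0.376), with edgeR in each case. The log2 fold change was -2.41 without imatinib replicate 1 and -0.98 without imatinib replicate 2. *OSM* (chr22:30262829-30266851) encodes oncostatin M, a secreted cytokine of the IL-6 family, and had 1 read pair, in imatinib replicate 1. It was at or under the limit of 3 read pairs in both conditions and no fold is given.

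**Figure D2:**
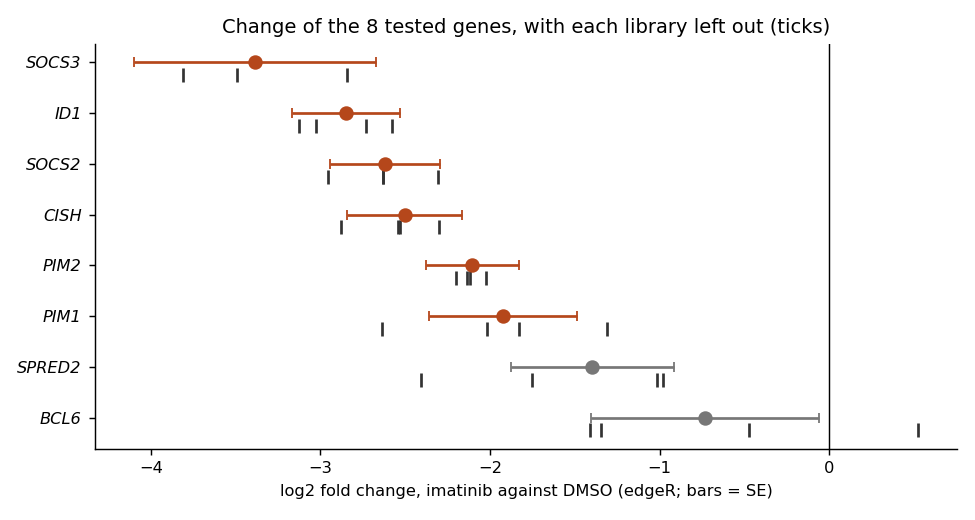
Log2 fold change of imatinib against DMSO for the 8 tested genes (points, with SE bars, from the edgeR fit) and the same value with each library left out (ticks; *SOCS3* could not be tested without DMSO replicate 2). Red points had an adjusted p under 0.05 and grey points, *SPRED2* and *BCL6*, did not; the *BCL6* ticks lie on both sides of 0.

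The paired ends show which isoforms these values were made of. Starts and ends were summed into groups of positions at most 25 bp apart. Of the 8 members with a start group of at least 4 read pairs, 7 had their leading start within 200 bp of an annotated transcript start, and *SOCS3*, whose pairs were spread over 18 start groups, was the exception. *ID1* was the most uniform, with 97.4% of its read pairs starting in the group around chr20:31605289 and 96.7% ending in the group around chr20:31606510. *PIM2* had 92.8% of its pairs in the start group around chrX:48919024 and 99.8% in the end group around chrX:48913184. *CISH* had 82.2% in the start group around chr3:50611774 and 93.4% in the end group around chr3:50606490. *PIM1* was more spread, with 41.0% in the start group around chr6:37170281, 129 bp from the start of PIM1-201, and 90.8% ending around chr6:37175426. *SPRED2* was the most spread by number, with 73 start groups, the largest of which (around chr2:65432518) had 8 and 37 read pairs in DMSO and 14 and 4 in imatinib, so that the groups overlapped there.

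Smaller start groups of these genes are given as read pairs, not adjusted for depth and without a test of their own. Folds and ratios among them are against the deposited totals. *PIM1* pairs from a start group around chr6:37172452, 16 bp from the start of PIM1-202, numbered 8 and 12 in DMSO and 0 and 0 in imatinib. This is at least 4.93-fold lower when 3 read pairs are allowed over the imatinib libraries and the DMSO count is taken as exact. By contrast, pairs that began in the 3′-terminal exon of *PIM1* around chr6:37175240 numbered 3 and 10 in DMSO and 4 and 3 in imatinib. In *ID1*, a group inside the coding exon around chr20:31605644 had 27 and 17 read pairs in DMSO and 2 and 0 in imatinib. In *CISH*, a group in the UTR exon around chr3:50607220 had 22 and 5 read pairs in DMSO and 4 and 0 in imatinib, and a group upstream of the gene around chr3:50611978 had 0 and 1 in DMSO and 4 and 1 in imatinib. Pairs that began in *PIM1* but ended beyond its window numbered 15 and 12 in DMSO and 0 and 1 in imatinib. The ratio was 20.0 (exact 95% interval 3.29 to 817, counting error only). Of these pairs, 16 ended around chr6:37185971, 10543 bp past the gene end.

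Linking TSS and PAS clusters gave 17 TIFs (boundary transcript isoforms with at least 4 read pairs) in 4 members, *PIM2*, *CISH*, *SOCS2* and *ID1*. This catalogue of 33887 TIFs held none of the other members. Of the 9 member TIFs tested, 8 were lower after imatinib, where 4.96% of 15477 tested TIFs were called lower. Of these, 4 were called without DMSO replicate 1, 4 without DMSO replicate 2, 5 without imatinib replicate 1 and 8 without imatinib replicate 2, counted over the member TIFs tested each time. The main *ID1* TIF (chr20:31605289 to 31606510) had 812 and 849 read pairs in DMSO and 137 and 57 in imatinib, and its log2 fold change was -2.65 ± 0.32 (SE, edgeR adjusted p = 0.00254). The main *PIM2* TIF (chrX:48919024 to 48913184) had 364 and 517 read pairs in DMSO and 109 and 60 in imatinib, with a log2 fold change of -1.85 ± 0.30 (adjusted p = 0.00685). The 2 tested *CISH* TIFs share the start at chr3:50611774 and end at 50606490 and 50606455. Both fell, with log2 fold changes of -2.51 ± 0.51 and -2.80 ± 0.64 (edgeR adjusted p = 0.0150 and 0.0229), and the second was not called with DESeq2 or without either DMSO replicate. The first was -3.41 without imatinib replicate 1, where it stayed called. The other 4 called TIFs had at most 3 imatinib read pairs. These 4 and both *CISH* TIFs, with 14 and 3 and with 3 and 1 imatinib read pairs, could be tested only through the DMSO libraries. They could thus only be called lower, and the 9 tested TIFs came from 4 genes. The *SOCS2* TIF from chr12:93569985 to 93576202 had 19 and 26 read pairs in DMSO and 0 and 0 in imatinib (edgeR adjusted p = 0.00800). It was at least 11.1-fold lower when 3 read pairs are allowed over the imatinib libraries and the DMSO count is taken as exact. It stayed called in all 9 alternatives. The remaining called TIFs, *SOCS2* from 93569969 and from 93572563 to the same end and *ID1* from 31605289 to 31606461, each lost the call without 1 or more of the libraries. A looser catalogue, from end positions seen at least 2 times, held 53 TIFs in 7 members, with 11 tested in 5 members. There the *PIM1* TIF from chr6:37170220 to 37175426 had 19 and 32 read pairs in DMSO and 4 and 6 in imatinib. It was not called (edgeR adjusted p = 0.0970), nor was *SOCS2* from 93571040 to 93576202 (0.228). The other tested TIFs there were called lower.

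*SOCS2* was the member with several strong starts, and their shares differed between the conditions. The gene has 12 annotated transcripts, and its 907 read pairs fell into 34 start groups, of which the 6 largest are named here by the distance of their most used position from the annotated gene start. The groups at +34 (chr12:93569848) and +171 (93569985) lie by the first annotated start, that of SOCS2-201, +1226 (93571040) lies 60 bp from the start of SOCS2-202, and +2125 (93571939), +2749 (93572563) and +2861 (93572675) lie farther down, the last of them at an annotated transcript start. The 30 bases around each start are shown, with the start itself in capitals, since the groups are told apart by position alone.
+34, chr12:93569833-93569862: caactaaaagtggccAttgacctttcaagc
+171, chr12:93569970-93569999: catttcaagtaggtcAtatttcgggggcgg
+1226, chr12:93571025-93571054: ctgggaccgacgtttAactcttgccaagtc
+2125, chr12:93571924-93571953: cggcgttggtggtttGcattttccgcagcg
+2749, chr12:93572548-93572577: tggaagcttggggttAaatggtgcaggaac
+2861, chr12:93572660-93572689: ccaacctcccgctttCtctttgtaggcgat

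In DMSO, the +171 and +1226 groups were of similar size, at 25.0 and 19.0 against 22.1 and 24.6 CPM. The +171 group had 87 and 99 read pairs in DMSO and 0 and 1 in imatinib, a ratio of 137 (exact 95% interval 24.4 to 5458, counting error only). The +1226 group had 77 and 128 read pairs in DMSO and 39 and 26 in imatinib (8.66 and 11.6 CPM). After imatinib it was the leading start by far. Its share of the gene's read pairs was 23.8% (95% Wilson interval 19.5 to 28.7) and 26.3% (22.6 to 30.4) in DMSO, and 70.9% (57.9 to 81.2) and 61.9% (46.8 to 75.0) in imatinib. The share of the +171 group was 26.9% (22.3 to 31.9) and 20.4% (17.0 to 24.2) in DMSO, and 0% (upper limit 6.53) and 2.38% (0.422 to 12.3) in imatinib. The groups downstream of it also had few read pairs left in imatinib. The +2861 group had 39 and 100 read pairs in DMSO and 3 and 1 in imatinib, and the +2749 group had 33 and 58 in DMSO and 1 and 2 in imatinib. The +2125 group had 13 and 14 read pairs in DMSO and 0 and 0 in imatinib. This is at least 6.65-fold lower when 3 read pairs are allowed and the DMSO count is taken as exact. The small +34 group, with 21 and 21 read pairs in DMSO and 4 and 2 in imatinib, held 6.48% and 4.32% of the gene's pairs in DMSO and 7.27% and 4.76% in imatinib.

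**Figure D3:**
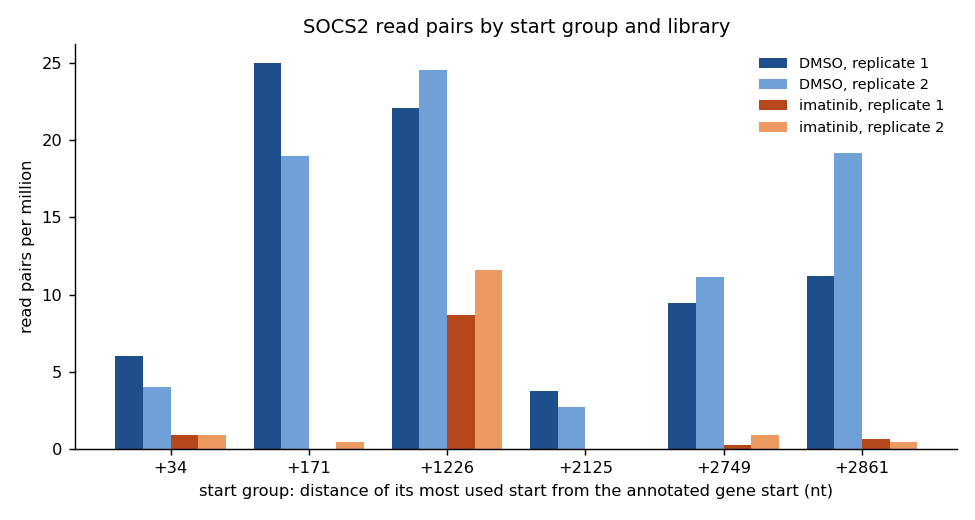
*SOCS2* level in CPM (linear axis from 0) by start group and library, with the start groups ordered by their distance in nt from the annotated gene start. At +1226 the imatinib bars reach 8.66 and 11.6, and at +171 they reach 0 and 0.446 beside DMSO bars of 25.0 and 19.0.

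The start groups were tested in a fit over 15591 start groups of all genes, from 5′ ends seen at least 2 times, an analysis added after the data were seen. The 9 groups tested in members included 7 that were lower after imatinib, where 5.3% of all start groups were. For *SOCS2*, the log2 fold change was -6.68 ± 0.76 (SE) at +171, -4.81 ± 0.67 at +2861 and -4.17 ± 0.68 at +2749, with edgeR adjusted p of 0.00134, 0.00277 and 0.00529. These fitted values rest on 1 to 3 imatinib read pairs and depend on the prior count. Such groups and the called *PIM1* group around chr6:37170220 (4 and 6 imatinib read pairs) could be tested only through the DMSO libraries. They could thus only be called lower. At +1226 the log2 fold change was -1.16 ± 0.36 and did not pass (adjusted p = 0.0605). The difference between starts was tested directly within the gene. Relative to the gene as a whole, +171 fell by 4.09 on the log2 scale (diffSpliceDGE adjusted p = 0.0102), where 2.93% of 9196 start groups in genes with several were called, and +1226 was 1.43 higher without passing (adjusted p = 0.0672). The call at +171 was lost without DMSO replicate 1 (adjusted p = 0.207), without DMSO replicate 2 (0.137) and without imatinib replicate 1 (0.330, with a change of -2.83). It held without imatinib replicate 2 (0.0125, with a change of -6.55), where +1226 passed as well (0.0441). On single TIFs, 0 of the 8 member TIFs in genes with several passed the same test, where 1.7% of 13676 TIFs did, and 3 of the 8 had an unadjusted p under 0.05. The closest were the *SOCS2* TIFs from +171 and +1226 to chr12:93576202, with adjusted p of 0.0802 and 0.110.

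The ends of *SOCS2* were less varied than its starts. Of its read pairs, 81.4% ended around chr12:93576202 and 10.3% around chr12:93575444. Each of the 5 largest start groups reached both ends. From +1226, 62 and 108 read pairs in DMSO and 33 and 25 in imatinib reached 93576202, and 11 and 12 in DMSO and 5 and 0 in imatinib reached 93575444. From +171, 66 and 76 read pairs in DMSO and 0 and 1 in imatinib reached 93576202, and 7 and 12 in DMSO and 0 and 0 in imatinib reached 93575444. The antisense lncRNA gene *SOCS2-AS1*, which overlaps the first part of *SOCS2* and is told apart by strand, had 35 and 73 read pairs in DMSO and 38 and 17 in imatinib and did not pass the test (log2 fold change -0.59 ± 0.36 SE, edgeR adjusted p = 0.299).

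The last 30 bases of the leading molecules are shown because cleavage for polyadenylation usually follows a poly(A) signal. Capitals mark AATAAA or ATTAAA, which lie in the 40 bases before the end at 52.4% (AATAAA) and a further 16.5% (ATTAAA alone) of 30461 PAS clusters.
ID1, chr20:31606481-31606510: tttgttATTAAAcaaataatttagatggtg
PIM1, chr6:37175397-37175426: ggcgttttttgAATAAAaaccttttgtctt
PIM2, chrX:48913184-48913213: cccactatttAATAAAagtaatagaatcag
CISH, chr3:50606490-50606519: acctctatAATAAAatgatacctttcatgt
SOCS2, chr12:93576173-93576202: aatgtATTAAATAAAaaaaacctgatttct
SOCS3, chr17:78356783-78356812: atttatAATAAAgagcactattttttaatg
BCL6 short end, chr3:187745172-187745201: gtgttaaAATAAAtgccgaagattagtccc
BCL6 gene end, chr3:187721384-187721413: acaaatataagAATAAAatgttgaaaagtc
SPRED2 gene end, chr2:65310852-65310881: taccgtgtaaatataaacacatcctatcag
SPRED2 internal end, chr2:65344207-65344236: ccctaatgAATAAAacatgcttggaaaaag
Of these ends, the one at the end of *SPRED2* had neither hexamer, and the *SOCS3* end and the internal *SPRED2* end each had 7 A in the 10 genomic bases that follow. The other ends had 1 to 4.

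In *BCL6* the 2 leading ends stood for molecules of very different span. Read pairs from the start at chr3:187745468 to chr3:187745172 had a median span of 231 bp. They numbered 3 and 19 in DMSO and 1 and 0 in imatinib, so most came from DMSO replicate 2. The ratio was 16.3 (exact 95% interval 2.63 to 671, counting error only, without the spread between replicates). These read pairs also lie within 1000 bp of the lncRNAs ENSG00000289331 and ENSG00000290021 on the same strand and cannot be told apart from them by position. Read pairs that ended at the annotated gene end around chr3:187721384 numbered 0 and 9 in DMSO and 9 and 3 in imatinib, so the groups overlapped. With pairs that span under 300 bp or over 2 Mb left out, or with pairs that fit more than 1 gene left out, *BCL6* had too few read pairs to be tested. In *SPRED2*, the pairs that ended around chr2:65310852, at the annotated gene end, numbered 19 and 38 in DMSO and 14 and 2 in imatinib. The pairs that ended around chr2:65344207, 11 bp from the end of the short transcript SPRED2-204, numbered 9 and 41 in DMSO and 9 and 3 in imatinib. Without pairs that have 7 or more A after the end, *SPRED2* kept 122 of its 197 read pairs and its log2 fold change was -1.11 (edgeR adjusted p = 0.141).

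**Figure D4:**
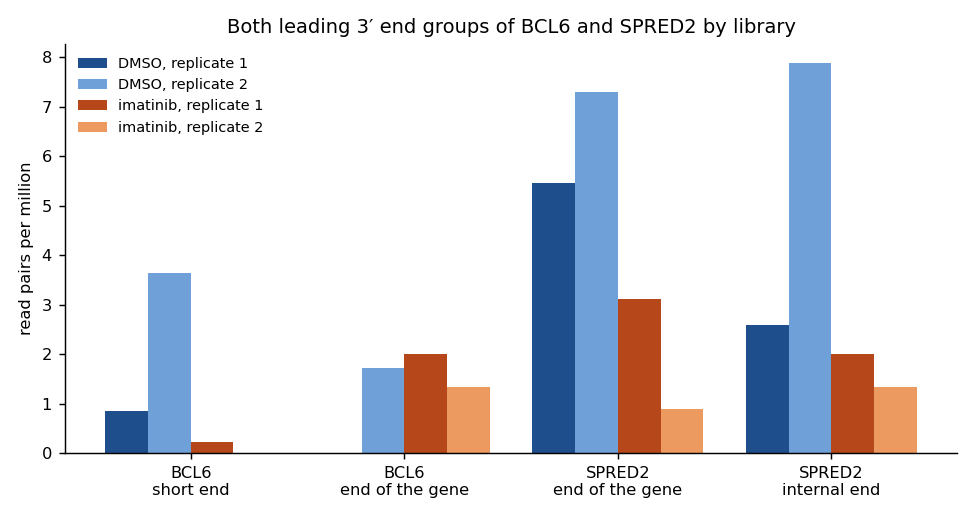
Level in CPM (linear axis from 0) at both leading 3′ end groups of *BCL6* and of *SPRED2*, 1 bar per library. The short *BCL6* end is highest in DMSO replicate 2, and its gene end overlaps between DMSO and imatinib.

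Other genes of the pathway were read from lists chosen by name, with earlier results of these data known. Of 20 other known STAT5 targets, 16 were tested, 6 were lower and 1 higher after imatinib, where 5.99% of all tested genes were lower and 8.88% higher, with a median log2 fold change of -0.74 against 0.03 over all tested genes. The lower ones were *EGR1* (an immediate-early transcription factor), *CCND1* and *CCND2* (D-type cyclins), *IGF1* (a growth factor), and *BCL2L1* and *MCL1* (inhibitors of apoptosis). *EGR1* had 119 and 105 read pairs in DMSO and 4 and 0 in imatinib, with a log2 fold change of -5.47 ± 0.66 (SE, edgeR adjusted p = 0.00242). It stayed called at -9.61 without imatinib replicate 1, where the fitted value depends on the prior count, and at -4.90 without imatinib replicate 2. *IGF1* had 94 and 166 in DMSO and 5 and 8 in imatinib (-3.84 ± 0.50, adjusted p = 0.00320), and *CCND2* had 88 and 163 in DMSO and 12 and 14 in imatinib (-2.78 ± 0.44, adjusted p = 0.00572). With pairs that fit more than 1 gene left out, *CCND2* was not tested. *CCND1* had 22 and 65 read pairs in DMSO and 2 and 1 in imatinib, a ratio of 21.4 (exact 95% interval 7.10 to 106, counting error only). *CCND1*, *EGR1* and *IGF1* had enough read pairs to be tested only through the DMSO libraries, so they could only be called lower. *BCL2L1* had 155 and 376 read pairs in DMSO and 101 and 25 in imatinib (-1.76 ± 0.40, adjusted p = 0.0216), and *MCL1* had 59 and 109 in DMSO and 20 and 20 in imatinib (-1.58 ± 0.41, adjusted p = 0.0341). Without DMSO replicate 2, edgeR no longer called *BCL2L1* (adjusted p = 0.0656) or *MCL1* (0.125), and *MCL1* was also lost without imatinib replicate 1 (0.0719). *IGF1* stayed called at -3.03 without imatinib replicate 1 and -4.73 without imatinib replicate 2, and *CCND2* at -2.17 and -3.43. The higher one was *GADD45G*, a stress-response gene, with 2 and 0 read pairs in DMSO and 21 and 6 in imatinib. The ratio was 18.3 (exact 95% interval 4.59 to 159, counting error only). *GADD45G* had enough read pairs to be tested only through the imatinib libraries, so it could only be called higher. It was not called with DESeq2 (adjusted p = 0.0908) or, with edgeR, without DMSO replicate 2 (0.212), and was not tested without imatinib replicate 1. *MYC* did not pass, at 173 ± 29.8 CPM in DMSO and 102.5 ± 31.6 in imatinib (log2 fold change -0.76 ± 0.30, edgeR adjusted p = 0.126).

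Of 15 paralogs of the members, 7 were tested and 3 were lower, none higher, where 5.99% of all tested genes were lower and 8.88% higher, with a median log2 fold change of -1.21. *SPRY4*, a Sprouty inhibitor of RAS-ERK signalling, had 24 and 64 read pairs in DMSO and 1 and 0 in imatinib. The ratio was 65.0 (exact 95% interval 11.4 to 2598, counting error only here and for *SPRED1*). *SPRY4*, *SPRED1* and *ID3* had enough read pairs to be tested only through the DMSO libraries, so they could only be called lower. *SPRED1* had 14 and 27 in DMSO and 2 and 1 in imatinib, a ratio of 10.1 (3.22 to 51.0), and was not called without DMSO replicate 2 (edgeR adjusted p = 0.116) or with DESeq2 (0.0620). *ID3*, a relative of *ID1*, had 41 and 78 in DMSO and 12 and 4 in imatinib (log2 fold change -2.52 ± 0.43, edgeR adjusted p = 0.00756). *ID2* did not follow these, at 34.9 ± 8.73 CPM in DMSO and 69.3 ± 10.4 in imatinib (0.98 ± 0.31, adjusted p = 0.0628). The remaining tested paralogs, *PIM3*, *SOCS4* and *SOCS6*, did not pass, with log2 fold changes of -1.21, -0.94 and -0.15, and *PIM3* also stands in the list of other targets.

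The signalling components were called at about the rate of all genes. Of 42 JAK-STAT pathway components, 28 were tested, 3 were higher and 2 lower, where 8.88% of all tested genes were higher and 5.99% lower, with a median log2 fold change of 0.15. *EPOR*, the erythropoietin receptor, had 52 and 77 read pairs in DMSO and 399 and 178 in imatinib (log2 fold change 2.50 ± 0.29, edgeR adjusted p = 0.00222), and it is also one of the erythroid markers above. *JAK2*, the kinase bound to that receptor, had 31 and 27 in DMSO and 89 and 63 in imatinib (1.77 ± 0.39, adjusted p = 0.0188), and *NCOA1*, a coactivator, had 55 and 60 in DMSO and 190 and 64 in imatinib (1.39 ± 0.34, adjusted p = 0.0285). *IL2RG*, the common gamma chain of cytokine receptors, had 121 and 108 in DMSO and 34 and 21 in imatinib (-1.72 ± 0.38, adjusted p = 0.0188). With pairs that fit more than 1 gene left out, *IL2RG* was not tested. *GRB2*, an adaptor that BCR-ABL1 also binds, had 966 and 1646 in DMSO and 604 and 394 in imatinib (-0.94 ± 0.26, adjusted p = 0.0445). Of these 5 calls by edgeR, *EPOR* alone held whichever library was left out. Those of *JAK2* (adjusted p = 0.136) and *NCOA1* (0.226) were lost without DMSO replicate 2, that of *IL2RG* without DMSO replicate 1 (0.105), and that of *GRB2* without DMSO replicate 1 (0.154), DMSO replicate 2 (0.304) or imatinib replicate 1 (0.0598). RNA of the factors did not pass the test, with *STAT5A* at 55.4 ± 7.78 CPM in DMSO and 41.2 ± 18.0 in imatinib (-0.45 ± 0.35, adjusted p = 0.428). *STAT5B* was at 35.4 ± 3.38 in DMSO and 36.6 ± 18.9 in imatinib (0.07 ± 0.38, adjusted p = 0.927). Phosphorylation of STAT5 was not measured in these libraries.

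**Figure D5:**
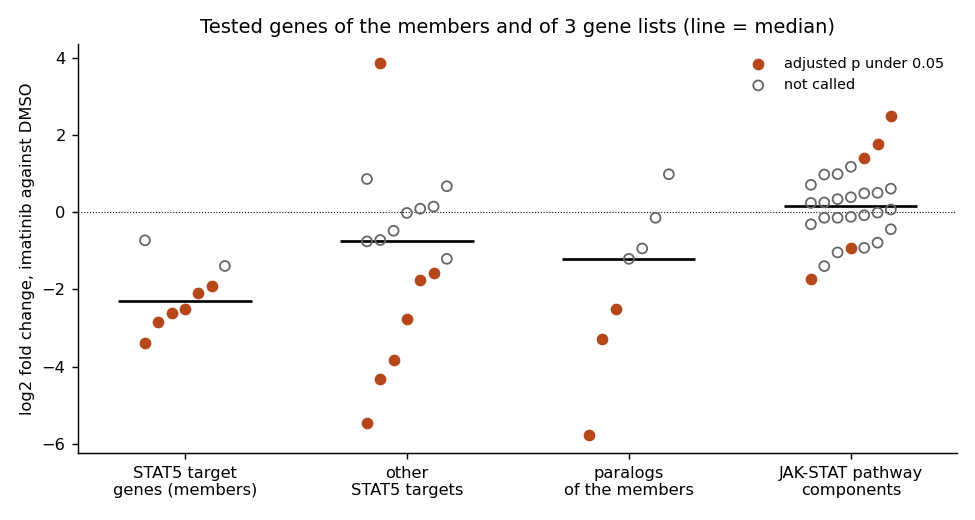
Log2 fold change of imatinib against DMSO (vertical axis) for each tested gene of the members and of 3 gene lists, with filled points at an adjusted p under 0.05 and a line at the median. The medians are -2.30 for the members, -0.74 for other STAT5 targets, -1.21 for paralogs and 0.15 for JAK-STAT components.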

How the data were processed

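The authors trimmed TIF-Seq2 reads with cutadapt (version 1.16), aligned 5′ and 3′ reads separately to hg38 with STAR (2.5.3a), kept uniquely mapped pairs, removed PCR duplicates by molecular identifier, and deposited raw counts of read pairs per combination of end positions, 1 table per library and without normalization. The versions are those of the submitters' processing notes. The pooled long-read models were not used, and the 3′T-fill samples were not analysed here.

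Counts were summed per gene (Gencode v44) and tested with edgeR 4.0.16 (quasi-likelihood, robust, TMM, filterByExpr, library size the deposited total) on R 4.3.3, with DESeq2 1.42.0 as an alternative. Standard errors were taken from the fold change and its F statistic. TIFs join TSS and PAS clusters (power law with exponent 1.25, at least 1 normalised count in at least 2 libraries, positions at most 10 bp apart, at least 4 pairs from 300 bp to 2 Mb apart, under 7 A in the 10 bases after the end). Use within genes was tested with diffSpliceDGE. On simulated data, the gene test recovered 84.3% of 4-fold and 17.5% of 2-fold changes among 11729 genes. Of its calls, 7.92% were false. The TIF test recovered 63.8% of 4-fold and 5.75% of 2-fold changes, so changes near 2-fold were mostly missed. The use test recovered 36.5%, 92.5% and 99.0% of genes with a 4-, 8- and 16-fold change of 1 of their 2 features, among 4000 features. Those features were deeper than the tested *SOCS2* TIFs (26 to 52 read pairs over the 4 libraries), at whose depth recovery was not tested.

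All members, the leading TIFs and, per list, up to 8 genes past the test with the largest change are named; the other genes were named after their values were seen. The members and lists were chosen with earlier results of these data known. The labels pair replicate numbers across conditions by name only. Replicates differed by a chi-square per degree of freedom of 9.60 (DMSO) and 15.6 (imatinib), so none was a copy. With 2 libraries against 2, an exact permutation test cannot go below p = 0.333, so only fits across all features were used. In the fit without 1 library, the lone library of its condition is assumed to vary like the other condition.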

Additional observations from a re-analysis of the deposited data

How the results depend on the processing

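*PIM1*, *PIM2*, *CISH*, *SOCS2* and *ID1* stayed lower and called under all 13 alternatives run for each. Of 204 alternative values for the members, their TIFs and *SOCS2* starts, 177 kept their direction and side of the threshold, 20 lost the call, 6 gained it, and 1 changed sign (*BCL6*, whose log2 fold change was -1.41 to 0.52 with 1 library left out). Of 192 for the called genes of the lists, 178 kept both and 14 lost the call. The number of members called lower was 5 to 7 under the alternatives, 5 with DESeq2. Depth limits *SOCS1*, *SOCS3*, *OSM* and *BCL6* most. The causes of the changes below were not tested. Counts of all genes called (1745; lower 703; higher 1042) were 2749 and 1291 lower with no filter beyond 1 read pair, and 1148 and 375 lower with a log2 fold change beyond 1.5 as well. Leaving out 1 library gave 819 to 3812 in all, 316 to 1718 lower and 503 to 2094 higher. DESeq2 called 707 lower and 697 higher, another split from the 703 and 1042 of edgeR. TIFs called (1789) were 1129 with DESeq2, 3041 with no filter, and 673 to 3602 with 1 library left out. Member TIFs called lower (8) were 4 with DESeq2 and 4 to 8 with 1 library left out. JAK-STAT components called lower (2) were 1 with the log2 fold change beyond 1.5 or without pairs that fit more than 1 gene, 4 with no filter, and 0 to 4 with 1 library left out, and those called higher (3) were 1 to 4. Other STAT5 targets called higher (1) were 0 with DESeq2 and 0 to 3 with 1 library left out, and paralogs called higher (0) were 0 to 1. The alternatives for the lists other than DESeq2 and the fold limit were added after the data were seen. Start groups called in use tests (269; members 1) were 13 to 399 in all and 0 to 2 in members with 1 library left out.

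Libraries with the same replicate number did not deviate together (correlation -0.24 over genes, -0.30 over TIFs), so the numbers pair nothing known. With the replicate block, 1120 genes (394 lower), 1040 TIFs, 65 TIFs in use tests and 103 start groups in use tests (0 in members) were called, and 1 JAK-STAT component was lower. *SOCS2* at +171 then had an adjusted p of 0.0505 by diffSpliceDGE, the *SOCS2* TIF from 93569969, the *ID1* TIF to 31606461 and *GRB2* lost their calls, and the 6 members stayed called. With the numbers crossed in the replicate block, a pairing added after the data were seen, 3614 genes (1722 lower, 1892 higher), 3975 TIFs, 5 JAK-STAT components lower, 3 other STAT5 targets higher and 1 paralog higher were called.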
